A study of Drosophila melanogaster with 24 samples.

Results

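Antimicrobial peptide genes of Drosophila melanogaster were followed across genotypes and amino acid diets. The 10 genes were chosen by name as classical members of their families: the attacins AttA, AttB, AttC and AttD, the diptericins DptA and DptB, drosocin (Dro), cecropin A1 (CecA1), metchnikowin (Mtk) and drosomycin (Drs). Of these, 9 are among the 12126 features listed for all 24 libraries, and AttD is listed only in the separate table of Gcn2 mutants on -R and Yaa. RNA-seq was performed on head and thorax of once-mated females of the white Dahomey control (wDah) and of Gcn2 null mutants, in which the open reading frame of the amino acid sensing kinase Gcn2 was replaced by a white marker gene. Flies spent 3 days on a chemically defined diet with a yeast-based amino acid composition (Yaa), or on this diet without arginine (-R), without methionine (-M) or without all amino acids (-All). All 8 groups had 3 libraries, described in the study's methods as biological replicates, and each library was made from 25 flies. The mutant is 1 allele in a single background, so the genotype comparisons rest on that allele.

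Antimicrobial peptides are small secreted proteins that damage the envelopes of bacteria and fungi, and the fat body, the liver and adipose equivalent of the fly, is their main source. Bacterial peptidoglycan activates the Imd pathway and its NF-kappaB factor Relish, whereas fungal glucans and Gram-positive peptidoglycan activate the Toll pathway through Spätzle and the factors Dif and Dorsal. DptA, the attacins, Dro and CecA1 are classical readouts of Imd, Drs is the classical readout of Toll, and Mtk can be induced through both pathways. In uninfected flies, starvation signalling through FOXO has also been described to act on peptide genes.

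The genes lie in a few places of the genome (BDGP6.54 annotation of the release 6 assembly). Dro (chromosome arm 2R, 14745961 to 14746714), AttA (2R, 14747362 to 14748215) and AttB (2R, 14749223 to 14750165) follow each other on the plus strand. DptA (2R, 18865765 to 18866260) is separated by 1130 bases from DptB (2R, 18867391 to 18867895). AttC (2R, 13393705 to 13394667) and Mtk (2R, 15408846 to 15409113) stand alone on the same arm. Drs lies on 3L (3369556 to 3369942), whereas AttD (17625268 to 17626086) and CecA1 (30210874 to 30211273) lie on 3R. AttA and AttB encode near-identical proteins, and CecA1 has the close copy CecA2 as its neighbour. How reads were divided within these pairs depends on the transcript assignment, so the separate levels of AttA and AttB are uncertain. AttC shares 53 exon bases with CG4744 and DptB shares 48 with CG43109, both on the opposite strand, and strand use is not given in the sources used here. Mtk lies in an intron of Stacl with no exon bases in common. Stacl was measured at normalized counts of 4586 to 18880 and CG43109 at 3.12 to 30.8, while CG4744 is not among the features of all 24 libraries.

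Values are normalized counts, that is, estimated transcript counts divided by a size factor per library, and their sum over all features was 20873591 to 27513490 per library (median 24029303). Gcn2 itself was at 597 to 701 normalized counts in the 12 wDah libraries and at 106 to 185 in the 12 mutant libraries, with means of 655 and 141. The gene was thus lower in every mutant library but not at 0, and gene totals do not show which part of the gene the remaining counts come from. Markers of the labelled tissue were present in every library, with all 6 photoreceptor and all 6 flight muscle genes above 0. A pair of mutant libraries stood apart by the summed count of ovary transcripts. For the 8 ovary genes listed (of 18 looked for), it was 12795 in Gcn2 Yaa replicate 2 and 9752 in Gcn2 -R replicate 1. The others were at 1946 to 6097. Per length (FPKM), the pair was at 210 and 150, but wDah -All replicates 1 and 3 were also high, at 198 and 114. All other libraries were at 29.2 to 65.6 FPKM. Calls of members that rest on the pair are also given without it. In whole tissue, fewer cells of a type and less RNA per cell cannot be told apart.

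Per length, the peptide genes differed widely in abundance, and several kept nearly the same rank in all libraries. Drs had the highest mean FPKM over the 24 libraries (214), and ranked first or second of the 9 genes in each. Mtk followed at 84.3, Dro at 44.8 and AttC at 23.5. DptB (10.9), DptA (10.3) and AttB (7.12) were intermediate, and AttA (2.12) and CecA1 (1.79) held the lowest ranks in every library. AttC moved between rank 2 and rank 7 of 9 and Mtk between rank 1 and rank 4. These FPKM are not in proportion to the annotated gene lengths. The normalized count per FPKM was 1.68 for Mtk (268 bases) and 16.9 for AttC (963 bases). By mean normalized count AttC (396) was above Mtk (142), so the order depends on the lengths that the authors used.

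The range between groups was likewise unequal. The mean normalized count of AttC differed 8.69-fold between the lowest group (Gcn2 Yaa, 117) and the highest (Gcn2 -R, 1020). For Mtk the ratio was 7.49, between wDah -All (46.8) and Gcn2 -M (350). All other tested members stayed within 2.80-fold (DptB 2.80, AttB 2.47, Dro 1.86, DptA 1.82, Drs 1.75 and AttA 1.74), and for AttA, DptA, Drs and Dro every pair of neighbouring groups in the order of means overlapped.

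**Figure D1:**
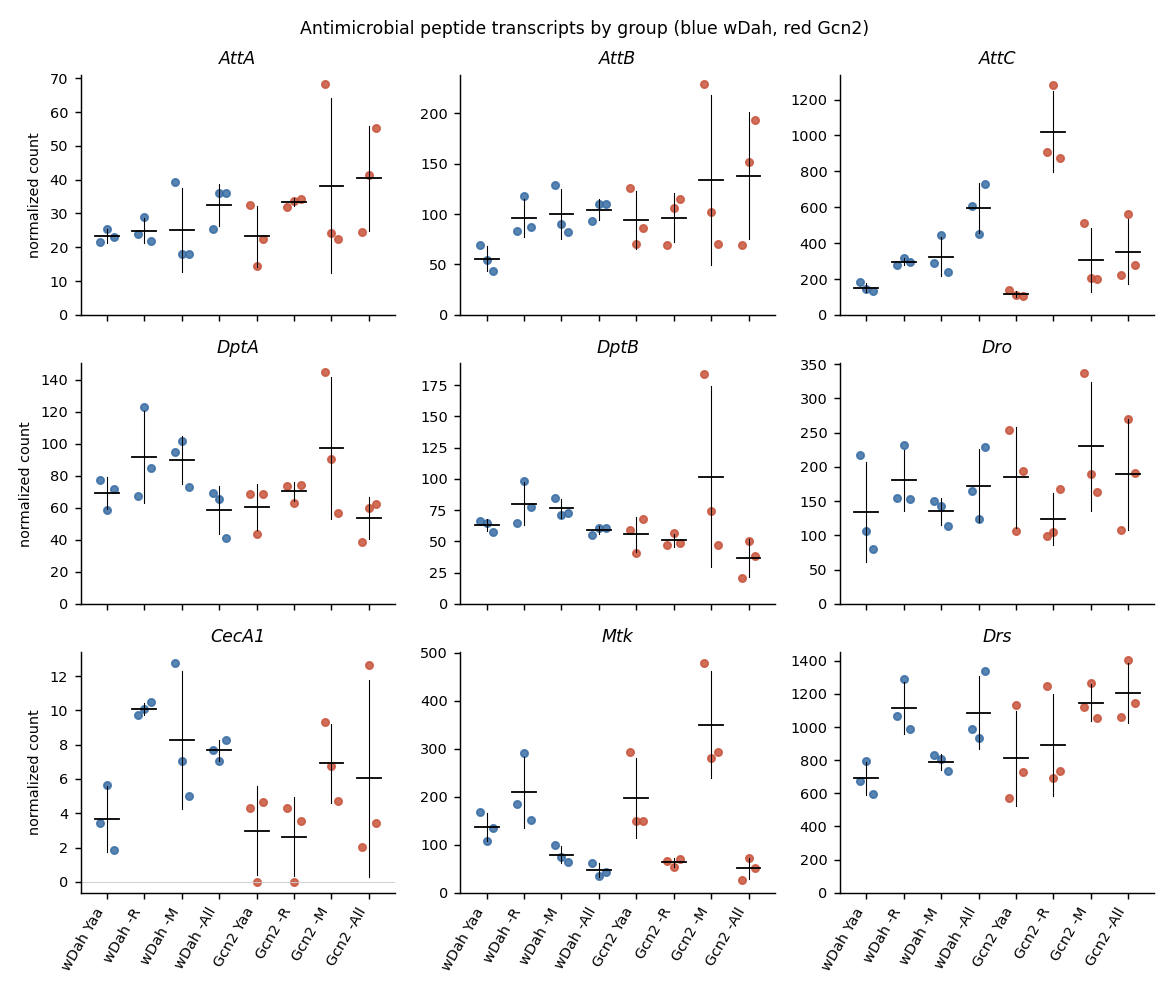
Normalized count of each of the 9 listed peptide genes (y axis, linear, from 0) in the 8 groups (x axis), with 1 point per library, horizontal bars for the mean and vertical lines for 1 SD (n = 3). AttC is highest in Gcn2 -R, with 873 to 1281, and Mtk is highest in Gcn2 -M, with 281 to 478.

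Each depleted diet was first compared with Yaa in wDah flies, to see which peptide genes respond to the loss of amino acids when Gcn2 is intact. Differences are of log2(normalized count + 1), so changes of low genes are understated, and are given with the standard error (SE) of the fit. Adjusted p-values come from limma with Benjamini-Hochberg adjustment over all genes whose mean over the compared libraries reached 10 normalized counts, and genes under 0.05 are called. Of the listed members, 8 passed this filter in every comparison and CecA1 in none. The 3 diet comparisons of a genotype use the same Yaa libraries and are therefore not independent of each other. Groups whose libraries did not overlap were common among all genes tested. In wDah, all -R libraries were above all Yaa libraries for 21.0% of genes and below them for 20.1%. On -M the shares were 24.4% and 19.9%.

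Without arginine, wDah flies had higher AttC, AttB and Drs, and no tested member was called lower. AttC, an attacin directed at Gram-negative bacteria, was at 182, 143 and 133 normalized counts on Yaa and at 276, 315 and 297 on -R. All -R libraries were above all Yaa libraries. The log2 difference was 0.96 ± 0.12 (SE), a fold of 1.95, with a limma adjusted p of 0.000759. Drs, the antifungal drosomycin, was at 677, 794 and 597 on Yaa and at 1068, 1290 and 989 on -R. These groups did not overlap either, and the log2 difference was 0.69 ± 0.12 (limma adjusted p = 0.00425). AttB was at 69.1, 54.5 and 43.8 on Yaa and at 83.5, 118 and 87.2 on -R. Its 3 -R libraries exceeded the Yaa libraries, by 0.78 ± 0.20 (limma adjusted p = 0.0265). The call of AttB was lost without wDah Yaa replicate 2 or 3 or wDah -R replicate 2 (adjusted p 0.0192 to 0.255 over all alternatives). A single fit of all 24 libraries, with its shared spread, called none of the 3 (adjusted p of AttC 0.0848 and of Drs 0.0559).

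These 3 of 8 members compare with 13.8% of the 10904 genes tested that were higher on -R in wDah, and 0 of 8 with 8.98% that were lower. All 8 members had a positive difference, with a median of 0.55 against -0.01 over all genes tested. After rescaling of the libraries to equal totals, the median of all genes moved to -0.16, and AttA (0.09 before) turned to -0.05 while the 7 others remained above 0. Mtk, which acts on fungi and Gram-positive bacteria, had means of 137 on Yaa and 209 on -R, but its libraries overlapped and its difference of 0.58 ± 0.24 did not pass (limma adjusted p = 0.128). CecA1, a helical peptide that permeabilizes bacterial membranes, was low throughout, at 3.4, 5.65 and 1.83 on Yaa and at 9.74, 10.1 and 10.5 on -R. The groups did not overlap, but the gene was under the filter, and without the filter the limma adjusted p was 0.0573 for a log2 difference of 1.34 ± 0.42.

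Without methionine, the attacins AttC and AttB were higher in wDah flies and Mtk was lower. AttC was at 291, 445 and 240 on -M, above all 3 Yaa libraries, with a log2 difference of 1.05 ± 0.22 (limma adjusted p = 0.00947). AttB was at 128, 89.7 and 82.0 on -M, also above all Yaa libraries, with 0.83 ± 0.22 (limma adjusted p = 0.0266). Mtk was at 168, 108 and 134 on Yaa and at 98.8, 74.3 and 63.8 on -M. Every -M library lay below every Yaa library, and Mtk fell by 0.79 ± 0.20 on the log2 scale (limma adjusted p = 0.024). Higher calls thus covered 2 of 8 members, against 15.3% of 10912 genes, and lower calls 1 of 8, against 10.4%. Without wDah Yaa replicate 3 only AttC of the members was called. AttB was also not called without wDah Yaa replicate 2 or wDah -M replicate 1, and Mtk was also not called without wDah Yaa replicate 1 or wDah -M replicate 2 or 3. AttA had a difference of 0.01 ± 0.33, which was -0.08 after rescaling to the same total. The single fit of all 24 libraries again called no member here. The lowest -M library of DptB (71.3) was above its highest Yaa library (66.3), but the gene did not pass (0.27 ± 0.14, limma adjusted p = 0.18).

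Without all amino acids, wDah flies had higher AttC, AttB and Drs and lower Mtk. AttC was at 609, 449 and 730 normalized counts on -All, against a highest Yaa library of 182. The log2 difference was 1.94 ± 0.19, a fold of 3.85 (limma adjusted p = 0.000219). Mtk was at 62.8, 34.2 and 43.4, against a lowest Yaa library of 108. Mtk fell by 1.55 ± 0.25 on the log2 scale, to 0.342 of the Yaa level (limma adjusted p = 0.00263). AttB, at 92.8, 110 and 110 on -All, was higher by 0.91 ± 0.18 (limma adjusted p = 0.00731), and was not called in the single fit of all 24 libraries (0.0940). Drs, at 990, 931 and 1339, was higher by 0.65 ± 0.15 (limma adjusted p = 0.0139), and was not called without wDah Yaa replicate 3. The libraries of these 4 genes did not overlap between -All and Yaa, which also held for 25.9% of all genes tested in the higher and 24.6% in the lower direction. Without wDah -All replicate 1 or replicate 3, each high in summed ovary FPKM, all 4 were still called.

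The higher calls, 3 of 8, compare with 19.7% of 10959 genes and the lower call, 1 of 8, with 15.7%. Scaling bore most on this diet. Rescaling every library to the same total moved the median of all genes from -0.02 to -0.30 and turned the split of all calls from 2154 higher and 1724 lower to 941 higher and 5892 lower. AttC (1.66), AttB (0.63) and Mtk (-1.83) were still called after it, Drs was not (0.36, limma adjusted p = 0.0594), and DptB was called lower (-0.38, limma adjusted p = 0.0397). The diptericins DptA (-0.26 ± 0.22) and DptB (-0.10 ± 0.13), which act on Gram-negative bacteria, did not pass before rescaling, with 95% intervals of -0.78 to 0.27 and of -0.41 to 0.22. Dro, a proline-rich peptide against Gram-negative bacteria, had a difference of 0.45 ± 0.37 (limma adjusted p = 0.384).

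**Figure D2:**
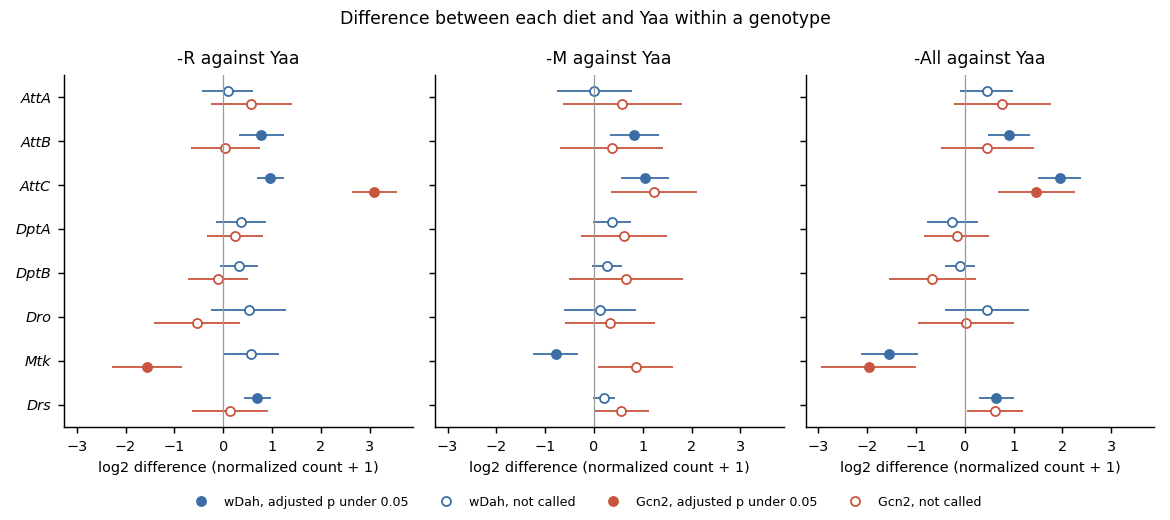
Log2 difference of normalized count + 1 between each depleted diet and Yaa (x axis) for the 8 tested members (y axis), in wDah (blue) and Gcn2 mutants (red), with 95% intervals of the limma fit on 6 libraries. Filled points passed an adjusted p of 0.05: AttC and AttB are filled to the right in all 3 wDah comparisons, and Mtk is filled to the left on -M and -All in wDah and on -R and -All in Gcn2.

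The same diets were then compared in Gcn2 mutants, to see which responses are present when the kinase is missing. Of all genes tested there, 26.6% on -R lay above Yaa without overlap and 21.6% below. These shares were 17.6% and 15.7% on -M, and 19.3% and 18.4% on -All. Without arginine, AttC rose further than any other member in any diet comparison and Mtk fell. AttC was at 137, 110 and 105 on Yaa and at 907, 1281 and 873 on -R. The lowest -R library was thus far above the highest Yaa library, and the log2 difference was 3.10 ± 0.19, a fold of 8.56 (limma adjusted p = 0.000164). Mtk was at 293, 150 and 149 on Yaa and at 65.8, 53.4 and 70.5 on -R. Again the groups did not overlap, and Mtk fell by 1.56 ± 0.30 on the log2 scale (limma adjusted p = 0.0138). Without Gcn2 -R replicate 2, the adjusted p of Mtk was 0.0579 and only AttC of the members was called. These calls, 1 of 8 higher and 1 of 8 lower, compare with 17.3% and 4.6% of 10937 genes.

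AttB, called higher in wDah on -R, had a difference of 0.04 ± 0.29 in the mutants, with a 95% interval of -0.66 to 0.75, and -0.03 after rescaling. Drs was at 573, 1131 and 727 on Yaa and at 1247, 691 and 734 on -R. Its highest library in each group was the one rich in ovary transcripts. With both of these libraries left out, which was decided after the data were seen, the difference of Drs stayed at 0.14, with its SE lower (0.12 in place of 0.32). The part of ovary tissue in the level of Drs was not tested. AttC (3.13) and Mtk (-1.75) were called in that fit too, and Dro was called lower in addition (-0.74 ± 0.24, limma adjusted p = 0.0345). AttD, the attacin listed for this comparison alone, was at 0, 0.95 and 0.94 normalized counts on Yaa and at 4.09, 3.10 and 9.22 on -R in the separately normalized table of these 6 libraries. The groups did not overlap, but the gene was far under the filter, and without it the limma adjusted p was 0.0727.

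Without methionine, no member was called in the mutants, although all 8 differences were above 0 with a median of 0.59 against -0.05 over all genes. At an unadjusted p under 0.05, 2 members passed, AttC and Mtk. AttC was at 512, 205 and 198 on -M, above the Yaa libraries, by 1.23 ± 0.37 (limma adjusted p = 0.0891). Mtk was at 478, 281 and 292, by 0.86 ± 0.32 (limma adjusted p = 0.163), and its lowest -M library was below its highest Yaa library. The background was 8.55% of 10945 genes called higher and 2.49% called lower. Of the 10 comparisons of 6 libraries, only this had a correlation of deviations over 0.1 for all 3 pairs of the same replicate number (0.23 to 0.48). In the fit with the replicate number as a block, both AttC (limma adjusted p = 0.0332) and Mtk (limma adjusted p = 0.0121) were called. Replicate 1 of Gcn2 -M held the highest value of all 24 libraries for 6 of the 9 listed members, AttA (68.3), AttB (229), DptA (145), DptB (184), Mtk (478) and Dro (337). In that library the summed fat body markers (2016106 normalized counts) were the highest of the 3 replicates, whereas the hemocyte (21612) and ovary (1946) sums were the lowest. Their part in its peptide levels was not tested.

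Without all amino acids, AttC was at 220, 561 and 277 in the mutants and Mtk at 27.5, 72.4 and 51.9. Both were clear of the Yaa libraries, with AttC higher by 1.47 ± 0.33 (limma adjusted p = 0.0278) and Mtk lower, at -1.97 ± 0.41 (limma adjusted p = 0.0195). The calls, 1 of 8 in each direction, compare with 10.6% higher and 3.54% lower of 10960 genes. They rest on few libraries, since neither was called without Gcn2 Yaa replicate 1 or without Gcn2 -All replicate 3, and only Mtk was called without Gcn2 Yaa replicate 3. Without the ovary-rich Gcn2 Yaa replicate 2, AttC (1.43) and Mtk (-2.13) were called, and Drs in addition. Drs was at 1060, 1407 and 1145, with a difference of 0.62 ± 0.24 that did not pass (limma adjusted p = 0.155). Dro, with 0.02 ± 0.41, turned to -0.30 after rescaling, which moved the median of all genes from -0.05 to -0.37. Replicate 1 of Gcn2 -All was below its group mean for all 8 members and replicate 2 was above it for all 8.

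The mean levels of AttC and Mtk lay on opposite sides of Yaa on several diets but not on all. On -R, wDah flies had both genes above their Yaa means, whereas mutants had the highest AttC of any group beside one of the lowest Mtk levels. On -M, Mtk was at 63.8 to 98.8 in wDah and at 281 to 478 in mutants at overlapping levels of AttC. Over the 24 libraries, Pearson's r of the log2 values was -0.43 (Spearman's rho -0.45), but for the deviations from the group means it was 0.61 (rho 0.50). These are descriptions over libraries that share groups. Within a group, libraries high in one gene tended to be high in the other.

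**Figure D3:**
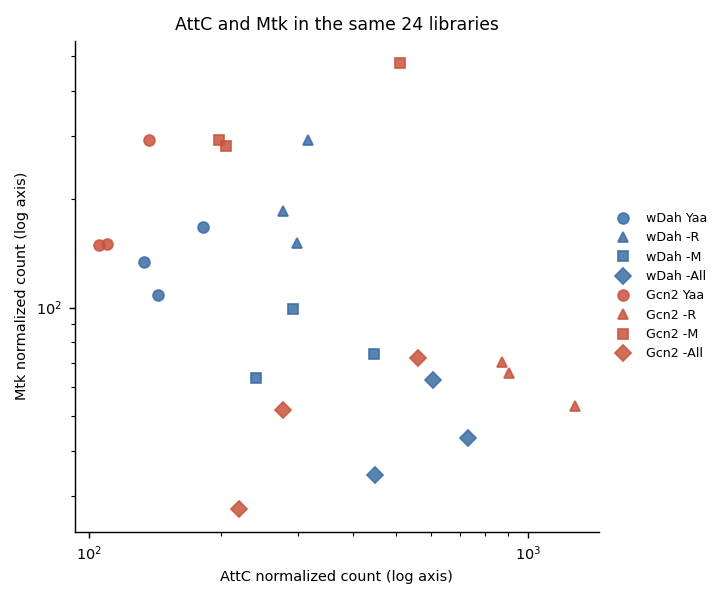
Normalized counts of AttC (x axis, log scale) and Mtk (y axis, log scale) in each of the 24 libraries, with colour for genotype and shape for diet. The 3 Gcn2 -R libraries sit at the lower right with AttC at 873 to 1281 and Mtk at 53.4 to 70.5, and the 3 Gcn2 -M libraries sit at the top with Mtk at 281 to 478.

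Genotypes were compared on each diet, and the difference between their diet responses was tested directly. Mutant libraries lay above wDah without overlap for 34.0% of all genes tested on -R, and below for 31.0%. The shares were 15.5% and 14.9% on Yaa, 20.7% and 20.2% on -M, and 8.94% and 8.81% on -All. On Yaa, no member was called between mutants and controls by limma, with 1 of 8 at an unadjusted p under 0.05. That member was AttB, at 126, 70.6 and 86.2 in mutants, above all wDah libraries by 0.73 ± 0.27 (limma adjusted p = 0.24). It was the only member called without Gcn2 Yaa replicate 2. The background was 1.38% of 11006 genes higher and 1.31% lower. AttC was at 105 to 137 in mutants and at 133 to 182 in wDah, with a difference of -0.37 ± 0.17 (limma adjusted p = 0.317).

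On -R, mutants had more AttC and less Mtk and DptB than controls. AttC was higher by 1.76 ± 0.16, a fold of 3.39 (limma adjusted p = 0.000347). Mtk was lower, at -1.66 ± 0.26, a ratio of 0.316 (limma adjusted p = 0.0031). DptB was at 46.8, 57.0 and 48.5 in mutants and at 64.9, 98.4 and 77.5 in wDah, which did not overlap, and the difference was -0.64 ± 0.20 (limma adjusted p = 0.038). The call of DptB was lost after rescaling, in the single fit of all 24 libraries and without any of wDah -R replicate 2 or 3 or Gcn2 -R replicate 2 or 3. Without the ovary-rich Gcn2 -R replicate 1, AttC (1.83), Mtk (-1.70) and DptB (-0.58, limma adjusted p = 0.0437) were called, and Drs in addition. CecA1, not tested, was at 4.33, 0 and 3.52 in mutants and at 9.74 to 10.5 in wDah, with a limma adjusted p of 0.0653 without the filter. This diet had the broadest background, with 27.7% of 10940 genes higher and 18.2% lower in mutants, so 1 of 8 higher and 2 of 8 lower are near the shares of all genes.

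The response to arginine loss itself differed between the genotypes for AttC and Mtk. The interaction, that is the -R effect in mutants minus that in wDah, was 2.13 ± 0.24 for AttC (limma adjusted p = 0.000114) and -2.14 ± 0.43 for Mtk (limma adjusted p = 0.00481). Both were called in each of the 18 alternatives of this test. They compare with 15.9% of 11001 genes higher and 5.63% lower. Drs had an interaction of -0.55 ± 0.38 that did not pass, and of -0.55 ± 0.20 (limma adjusted p = 0.0403) without the libraries rich in ovary transcripts. AttB (-0.74 ± 0.38) and Dro (-1.06 ± 0.56) did not pass, with 95% intervals of -1.58 to 0.10 and -2.31 to 0.19.

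On -M, mutants had more Mtk and Drs than controls. Mtk was higher by 2.12 ± 0.23, a fold of 4.33 (limma adjusted p = 0.000471). Drs was at 1121, 1268 and 1054 in mutants and at 829, 807 and 736 in wDah. The groups did not overlap and the difference was 0.53 ± 0.08 (limma adjusted p = 0.00216), although Drs was not called in the single fit of all 24 libraries (0.124). Higher calls covered 2 of 8 members and lower calls 0, against 12.2% and 10.9% of 10906 genes. Dro was also higher in every mutant library, at 337, 190 and 163 against 150, 143 and 113, but did not pass (0.70 ± 0.25, limma adjusted p = 0.0858). The interaction on -M was called for Mtk alone, at 1.64 ± 0.42 (limma adjusted p = 0.039), against 4.21% of 10985 genes higher and 2.71% lower. This call was lost without 7 of the 12 libraries in turn, namely wDah Yaa replicates 1 and 3, wDah -M replicates 2 and 3, Gcn2 Yaa replicate 3, and Gcn2 -M replicates 1 and 3. Over all alternatives its adjusted p ran from 0.00121 to 0.0969. Without the ovary-rich Gcn2 Yaa replicate 2, Mtk was called (1.49, limma adjusted p = 0.0424), and Drs in addition.

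On -All, no member was called between genotypes by limma, with 2 of 8, AttC and DptB, at an unadjusted p under 0.05. AttC was lower by mean (352 against 596), at -0.85 ± 0.33 with overlapping libraries (limma adjusted p = 0.363). DptB was at 20.4, 50.6 and 38.1 in mutants, below the wDah libraries of 55.1, 60.3 and 61.0 (-0.77 ± 0.32, limma adjusted p = 0.382). The background was low, 0.56% of 10897 genes higher and 0.514% lower. The interaction on -All was called for no member, with none at an unadjusted p under 0.05, against 0.391% and 0.491% of 11000 genes. Its 95% intervals were wide, from -1.40 to 0.45 for AttC and from -1.57 to 0.73 for Mtk.

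**Figure D4:**
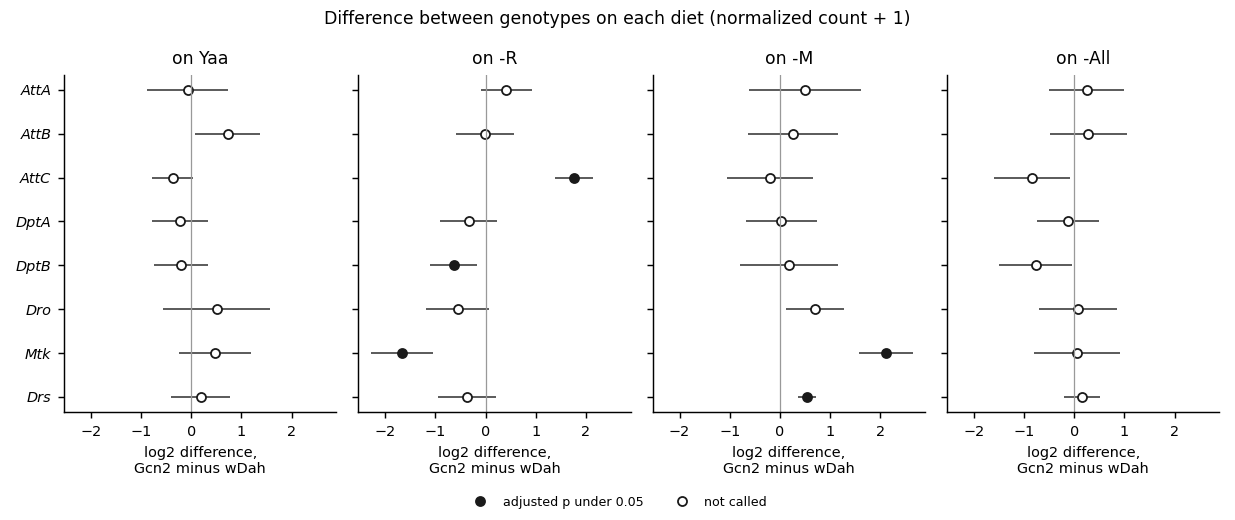
Log2 difference of normalized count + 1 between Gcn2 mutants and wDah (x axis, mutant minus control) for the 8 tested members (y axis) on each of the 4 diets, with 95% intervals of the limma fit on 6 libraries. Filled points passed an adjusted p of 0.05: AttC, DptB and Mtk on -R, and Mtk and Drs on -M.

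Replicates of a group deviated from their mean together for most members. For the 28 pairs of the 8 tested members, the correlation of deviations from group means over 24 libraries had a median of 0.61, with the neighbours AttA and AttB at 0.87 and DptA and DptB at 0.78. Drs was set apart, with correlations of -0.13 to 0.11 with the 7 others. All 8 members lay below their group mean in wDah -R replicate 1, wDah -M replicate 3, Gcn2 -M replicate 3 and Gcn2 -All replicate 1. In wDah -R replicate 2 and Gcn2 -All replicate 2, all 8 lay above it. The mean deviation ran from -0.60 in Gcn2 -All replicate 1 to 0.71 in Gcn2 -M replicate 1 on the log2 scale.

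**Figure D5:**
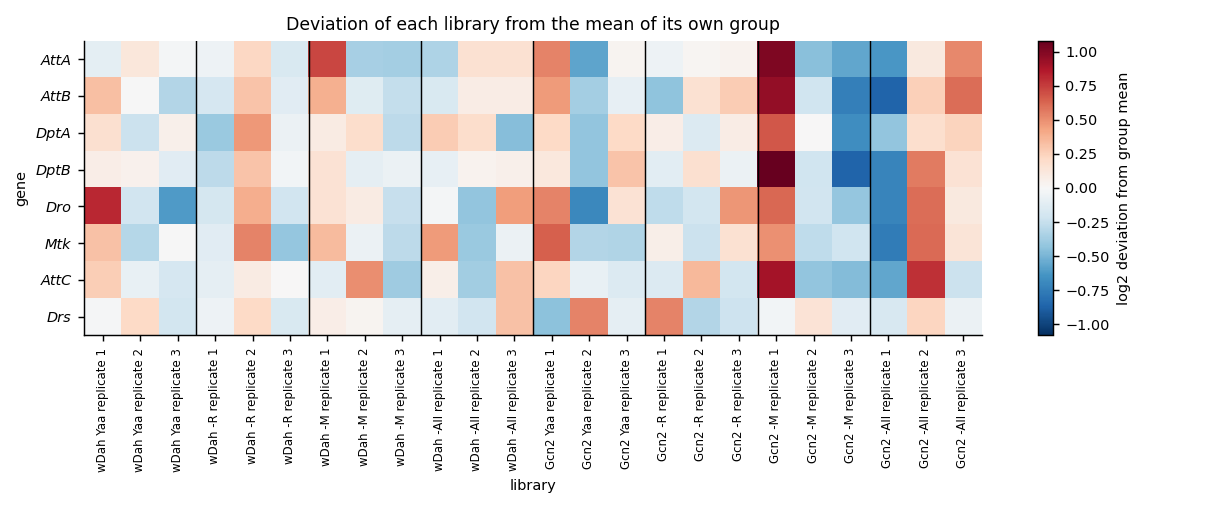
Log2 deviation of each tested member (rows) from the mean of its group in each of the 24 libraries (columns, groups divided by lines), from blue for below to red for above the group mean. Gcn2 -M replicate 1 is red for 7 of 8 genes and Gcn2 -All replicate 1 is blue for all 8.

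The genes whose pattern was most like the mean of the 8 tested members, by Pearson's r over 24 libraries, reached r = 0.64 at most. They were CG13837, CR33487, PGRP-SD, arg, CG3999, MsrA, CG11425, Osbp, CG42806 and PIG-Wa. PGRP-SD, a secreted peptidoglycan recognition protein of the Imd pathway, was at rank 3 of 10986 features, with r = 0.61 and rho = 0.66. The value is a description over libraries that share groups.

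The other antimicrobial and immune peptides were called higher more often than lower on every diet, which also held for all genes tested. Of 35 listed genes 21 were measured and 18 were tested, among them Bomanins, short Toll-dependent peptides, and drosomycin-like genes. In wDah, 10 were higher and 1 lower on -R, 8 higher and 2 lower on -M, and 10 higher and 0 lower on -All. Of all genes, 13.8% and 8.98%, 15.3% and 10.4%, and 19.7% and 15.7% were called higher and lower in these comparisons. In mutants, 9 were higher on -R, 8 on -M and 9 on -All, with none lower. Of all genes there, 17.3%, 8.55% and 10.6% were higher and 4.6%, 2.49% and 3.54% lower. The leading call was BomBc2 on -R in wDah (0.82, limma adjusted p = 6.08e-05), Drsl4 on -M in wDah (-1.49) and IM33 on -All in wDah (1.38). In mutants BomT2 led on -R, from 1294 to 5064 (1.97), and BomBc2 led on -M (1.51) and on -All (1.43). The list had a median difference of 0.17 to 0.53 in the 6 diet comparisons.

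Between genotypes, 1 of these peptides was called on Yaa (BomBc3, 1.32) and none on -All. On -R, 9 were higher and 5 lower in mutants, led by Drsl5 (2.15), BomBc3 (1.73), BomS5 (1.52) and Drsl4 (1.49), with Def, the defensin directed at Gram-positive bacteria, lower (-1.40, from 68.1 in wDah to 24.3). On -M, 11 were higher and none lower, led by Drsl4 (1.12). The -R interaction was called for 5 higher and 3 lower, the -M interaction for 5 higher, and the -All interaction for 1 in each direction. In each of these comparisons 18 of the peptides were tested. Of all genes, 1.38% were higher in mutants on Yaa, 27.7% on -R and 12.2% on -M, and 18.2% were lower on -R. Interactions were called higher and lower for 15.9% and 5.63% of all genes on -R. The shares were 4.21% and 2.71% on -M, and 0.391% and 0.491% on -All.

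Genes of the Toll pathway were called in one direction in most diet comparisons. Of 18 genes, all tested, 10 were higher on -R, 6 on -M and 9 on -All in wDah, with none lower. Among all genes, 13.8%, 15.3% and 19.7% were higher there and 8.98%, 10.4% and 15.7% lower. The leading genes were the serine protease Hayan on -R (0.94) and on -M (0.71) and the fungal glucan sensor GNBP3 on -All, from 1064 to 2516 normalized counts. Toll genes of mutants were called higher for 12 and lower for 1 on -R, led by the Gram-positive sensor GNBP1 (1.85), the proteases grass (1.40) and Hayan (1.33) and the Spätzle processing enzyme SPE (1.22). The gene called lower was dl, which encodes the factor Dorsal (-0.61). On -M and on -All, 7 were higher in mutants. In mutants, the higher calls among all genes made up 17.3% for -R, 8.55% for -M and 10.6% for -All. Lower calls made up 4.6%, 2.49% and 3.54%, so the 1 of 18 lower on -R is near that share. The -R interaction was called for 7 higher and 2 lower, led by GNBP1 (1.42), and the -M interaction for 4 higher, led by SPE (0.80). None was called on -All. Among all genes, the interaction was called higher for 15.9% and lower for 5.63% on -R, and higher for 4.21% on -M. Directly compared, 9 Toll genes were higher and 2 lower in mutants than in wDah on -R. On -M 8 were higher, and none was called on Yaa or -All. Of all genes, 27.7% were higher and 18.2% lower on -R, and 12.2% were higher on -M.

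Recognition and signalling genes of the Imd pathway were called in both directions in wDah and mostly higher in mutants, with PGRP-SD or Rel in the lead. In wDah 4 of 17 were higher and 2 lower on -R, 5 and 2 on -M, and 5 and 1 on -All. All genes were called higher and lower in 13.8% and 8.98% on -R, 15.3% and 10.4% on -M, and 19.7% and 15.7% on -All, so several of these counts lie near the background. PGRP-SD led on -R, from 156 to 409 normalized counts (1.38), and on -All (1.39), and Rel, which encodes Relish, led on -M (0.87). The mutants had 4 higher and 1 lower on -R, 2 higher on -M and 4 higher on -All. Of all genes in mutants, 17.3% and 4.6% were higher and lower on -R, 8.55% and 2.49% on -M, and 10.6% and 3.54% on -All. Calls of all genes were thus also mostly higher in mutants, and several of these counts lie near the background too. PGRP-SD led on each diet in mutants (1.76, 1.81 and 1.31). Its response to -M differed between genotypes (interaction 1.28, limma adjusted p = 0.00206).

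Among inhibitors of the Imd pathway, PGRP-SC2, an amidase that degrades peptidoglycan, was higher in wDah on -R (1.31), -M (1.07) and -All (2.80). In mutants it was higher on -M (1.54) and on -All (3.03), and on -R it was lower than in wDah (195 against 1117, -2.97, limma adjusted p = 0.0147). The -R interaction for PGRP-SC2 was -3.63 (limma adjusted p = 0.00678). Of the 9 tested inhibitors, 4 were higher and 1 lower on -R, 3 and 1 on -M and 4 and 1 on -All in wDah, and 2, 2 and 3 were higher in mutants, with none lower. The single lower call on each diet in wDah is near the share of all genes (8.98%, 10.4% and 15.7%). The higher calls stand beside 13.8%, 15.3% and 19.7% in wDah and 17.3%, 8.55% and 10.6% in mutants. In mutants, 4.6%, 2.49% and 3.54% of all genes were lower.

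Lysozymes, which cleave bacterial cell walls and of which several are digestive enzymes, went in opposite directions on -R. In wDah 4 of 5 tested were higher on -R, with LysD at 15596 against 5744 (1.43), and in mutants 0 of 6 were higher and 3 lower, with LysD at 480 against 5844 (-3.75). The -R interaction was called lower for 4 of 5, among them LysD (-5.18). On -M and -All, 3 and 4 were higher and 0 and 1 lower in wDah, and 2 were higher on each diet in mutants. On -R, 13.8% of all genes were higher in wDah and 4.6% were lower in mutants, and 5.63% had a lower interaction. On -M and -All, 15.3% and 19.7% of all genes were higher in wDah, and 8.55% and 10.6% in mutants. In wDah on -All, 15.7% were lower. LysB, LysC, LysD and LysE are close copies, so the division of reads between them is uncertain.

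Genes of the JAK-STAT pathway and of the stress response were called higher more often than lower in each diet comparison, which also held for all genes tested. In wDah 5 of 14 tested were higher on -R, 6 on -M (with 1 lower) and 8 on -All, led by the stress peptide TotM each time (1.31, 0.93 and 3.94). In mutants 8 of 16 were higher on -R, led by TotA from 1271 to 8544 (2.74), 5 of 15 on -M, led by TotC (1.77), and 7 of 15 on -All, led by TotM (1.86). All genes were called higher in 13.8%, 15.3% and 19.7% in wDah and in 17.3%, 8.55% and 10.6% in mutants. Lower calls made up 8.98%, 10.4% and 15.7% in wDah and 4.6%, 2.49% and 3.54% in mutants. The cytokine upd3 was higher in mutants on -R (2.53), with an interaction of 3.08. Its mean over all 24 libraries was 12.9 normalized counts, the lowest of this list and close to the filter. All 16 measured genes of this list passed the filter only in comparisons that held the Gcn2 -R libraries. Elsewhere 14 or 15 of them were tested. The filter can thus admit a low gene through the group where it is high, so both values of upd3 are only descriptions. In all, the -R interaction was called for 8 higher and 1 lower of 16, and the -M interaction for 2 higher of 15. Of all genes, the -R interaction was called higher for 15.9% and lower for 5.63%, and the -M interaction higher for 4.21%.

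Of 7 regulators tied to nutrient state, all tested, 2 were higher in wDah on -R, 5 on -M and 2 on -All. On -All, 2 were also lower. In mutants 2 were higher on -R, and 1 was higher and 1 lower on both -M and -All. Of all genes, 13.8%, 15.3% and 19.7% were higher in wDah and 17.3%, 8.55% and 10.6% in mutants. Lower calls made up 15.7% in wDah on -All, and 2.49% and 3.54% in mutants on -M and -All. The fat storage lipase bmm was called higher in wDah on -R (0.29), and Thor, the translation inhibitor 4E-BP, led on -M (0.66). InR, the insulin receptor, led on -All (-0.81). In mutants, srp, the GATA factor of fat body and blood cells, led on -R (1.09), and InR led on -M (-0.56) and on -All (-0.67). The gene foxo was not called in any of the 6 diet comparisons. Thor was lower in mutants than in wDah on -M (-1.12), where the interaction was -1.04 (limma adjusted p = 0.00851).

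Markers of cell types that make these peptides moved with the diets. The summed normalized count of 10 fat body genes, among them the yolk proteins and the storage protein Lsp2, was 458600 to 538715 in wDah Yaa. It was 1388645 to 1540932 on -R, 694685 to 750213 on -M and 3117897 to 3548666 on -All. In mutants it was 567102 to 570547 on Yaa, 721395 to 1009411 on -R, 1807844 to 2016106 on -M and 3122617 to 3950342 on -All. No gene of this list was at 0 in any library. The yolk protein genes Yp1, Yp2 and Yp3 had the highest mean counts of the list (532084, 327892 and 381825), so the sum follows them most. Between genotypes on -R, 3 of 9 tested fat body genes were higher and 5 lower in mutants, against 27.7% and 18.2% of all genes. The fat body sum was highest on -All in both genotypes, and AttC was highest in Gcn2 -R. The part of these shifts in the peptide levels was not tested.

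Hemocyte and gut genes shifted as well. The summed level of 10 hemocyte genes was 15814 to 16611 in wDah Yaa, 19166 to 22002 on -R, 14830 to 17079 on -M and 26002 to 31503 on -All. In mutants it was 15058 to 17295 on Yaa, 23134 to 26134 on -R, 21612 to 25606 on -M and 28678 to 30346 on -All. The summed level of 12 digestive enzymes of the gut was 71713 to 105633 in Gcn2 -R and 160937 to 368077 in all other libraries. In that group, AttC was highest while Mtk and DptB were lower than in wDah. None of the 6 male accessory gland genes looked for was listed. The part of hemocytes or gut in the peptide levels was not tested.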

How the data were processed

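RNA-seq was performed on head and thorax of females, with 3 libraries for each of 8 groups taken from the sample labels. Single-end reads were quantified by the authors against BDGP6.32 transcripts with kallisto 0.46.2, and the estimated counts were normalized with DESeq2 1.24.0 in R 3.6.3. These normalized counts, the signal that the authors deposited, come in a table of all 24 libraries and in 6 tables of 6 libraries each. The former also holds FPKM values of the authors, which are proportional to the normalized counts within a gene and were used only to compare genes. The 6 tables also hold the fold changes and p-values of the authors' own DESeq2 tests, which were not used. Of the values below 30, 78.7% to 82.2% per library were whole multiples (within 0.02) of one step, so whole reads were not recovered, the number of reads stays unknown here, and precision is given by the spread of the libraries. No column was left unmapped (0).

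Normalized counts of the 24-library table were tested as log2(value + 1) with limma 3.58.1 in R 4.3.3 (lmFit, eBayes with trend). Each test used only the libraries of its groups, 6 or, for interactions, 12, and genes with a mean of at least 10. Two-sided p-values received Benjamini-Hochberg adjustment across the genes tested, with calls under 0.05. The fit was tested on simulated data. Alternatives were a pseudocount of 10, no filter, equal library totals, a single fit of all 24 libraries, a replicate block, the table of each comparison, and leaving out each library. All 10 members are named, and of each gene list the called genes with the largest absolute difference (up to 4 per comparison), together with the 10 genes most like the members. Members and lists were chosen with earlier results of these data known. Def, dl and foxo were named in addition after their values were seen. Gene positions are from the BDGP6.54 annotation. Figures were made in Python 3.11.15 (matplotlib 3.10.9, pandas 2.3.3).

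The labels give no batch behind a replicate number. The correlation of deviations of libraries with the same number ran from -0.50 to 0.48 over the 10 comparisons of 6 libraries, and was over 0.1 for all 3 pairs only for Gcn2 -M against Yaa (0.27, 0.48 and 0.23), so the block is given beside that result.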

Additional observations from a re-analysis of the deposited data

Results flagged for a closer look

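The response to the loss of arginine differed between the genotypes for a pair of genes. The interaction was 2.13 on the log2 scale for AttC and -2.14 for Mtk (limma adjusted p = 0.000114 and 0.00481, on 12 libraries). AttC rose in both genotypes, 1.95-fold in wDah and 8.56-fold in mutants. Mtk had a positive difference in wDah (0.58, not called) and a negative one in mutants (-1.56, called).

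The response to the loss of methionine differed for Mtk, with an interaction of 1.64 (limma adjusted p = 0.039). It fell in wDah (-0.79) and had a positive difference in mutants (0.86, not called without a block).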

How the results depend on the processing

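Of the 22 calls of single members, none reversed in 278 refits, 236 were called again and 42 were not. The 8 results called in every refit were AttC for wDah -All and Gcn2 -R against Yaa, for Gcn2 against wDah on -R and for the -R interaction, and Mtk for wDah -All against Yaa, for Gcn2 against wDah on -R and -M and for the -R interaction. A single fit of all 24 libraries, which shares 1 estimate of the spread, called 0 members in place of 3 for wDah -R and 0 in place of 3 for wDah -M, 1 in place of 0 for Gcn2 -M, 1 in place of 2 for Gcn2 against wDah on -M and 0 in place of 1 for the -M interaction. The cause was not tested. The replicate block called 2 in place of 0 for Gcn2 -M and 0 in place of 2 for Gcn2 -All (adjusted p of AttC 0.0690 and of Mtk 0.0829), and kept the other counts within 1.5 times. No other comparison had all 3 correlations of the same number over 0.1. Every library correlated best with its own number only for wDah -All (0.12, 0.11 and 0.03) and Gcn2 -M.

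Leaving out 1 library in turn gave 2 to 4 members for wDah -R, with Dro added without wDah Yaa replicate 1. It gave 1 to 3 members for wDah -M, 1 to 2 for Gcn2 -R, 0 to 1 for Gcn2 -M and 0 to 3 for Gcn2 -All. For Gcn2 against wDah on Yaa it gave 0 to 1, and for the -M interaction 0 to 2. Without Gcn2 Yaa replicate 2, the library richest in ovary transcripts, 1 member (Drs) was called for Gcn2 -M. Leaving out both ovary-rich libraries, chosen after seeing the data, gave 3 for Gcn2 -R (Dro added) and 3 for the -R interaction (Drs added).

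Counts of all calls also depended on scaling. With equal library totals, higher and lower calls went from 1502 and 979 to 874 and 3963 for wDah -R, from 1669 and 1140 to 1019 and 2304 for wDah -M, from 1897 and 503 to 1538 and 1024 for Gcn2 -R, from 936 and 272 to 653 and 1106 for Gcn2 -M, from 1161 and 388 to 723 and 4265 for Gcn2 -All, from 1329 and 1188 to 1040 and 1486 for Gcn2 against wDah on -M, and from 463 and 298 to 375 and 468 for the -M interaction. CecA1 and AttD, under the filter, were tested only without it.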
